A study of Mus musculus with 24 samples.

Results

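Kidney genes whose allelic ratio differed between libraries of different preparation kits and RNA inputs are described here. Allelic imbalance (AI) was computed as the share of a gene's allelic counts that fell in the maternal column of the count table. Genes were chosen by this measured value alone: a gene belonged to the set when its AI, pooled over the 6 libraries made with the NEBNext kit from 100 ng of total RNA, differed by at least 0.15 from its AI pooled over the 6 libraries made with the SMARTseq kit from 10 ng. At least 600 pooled allelic counts were required with each kit, and symbols starting with Zfp, H2-, Cyp, Rpl, Rps or Nduf were left out. Of 37315 genes in the table, 5530 could have qualified, and 100 did, which is 1.81% of those eligible. AI was higher with SMARTseq 10 ng for 49 of the 100 genes and lower for 51.

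In an F1 hybrid of inbred strains, a read that covers a position where the strains differ can be assigned to the copy it was transcribed from. AI is therefore a ratio measured inside one sample, in which both copies pass through the same extraction, reverse transcription, amplification and sequencing. Both kits start from polyadenylated RNA, but they make and amplify cDNA in different ways: NEBNext fragments RNA before random-primed synthesis, while SMARTseq primes at the poly(A) tail and amplifies full-length cDNA by template switching. A gene's count is a sum over the covered strain differences in its exons.

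All kidney libraries were made from aliquots of RNA of the left kidney of an adult female 129S1/SvImJ x CAST/EiJ F1 mouse, labelled as untreated control. The 3 kidney groups are NEBNext 100 ng, SMARTseq 10 ng and SMARTseq 100 pg, with 6 libraries each. The libraries of a group are therefore technical replicates of RNA from 1 animal, and their spread holds no animal-to-animal variation. Abl.1 and Abl.2 are clonal B-lineage lines immortalised with Abelson virus, of the same F1 background, each grown in medium and profiled in 2 SMARTseq libraries from 10 ng, and the Abl.2 libraries were sequenced again in a second run. Each line is 1 clone. Kit and input changed together between NEBNext 100 ng and SMARTseq 10 ng and cannot be told apart. The pair of SMARTseq kidney groups shares RNA and kit and differs in input, along with any step adjusted for the starting amount. The clones share kit and input with SMARTseq 10 ng. They differ from kidney in tissue and, per the study, in RNA extraction, sequencing site and instrument, and read length and pairing.

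Total allelic counts ranged from 6138693 to 6702351 per kidney library and from 19213150 to 22241719 per clone library of the first run. Every marker of proximal tubule, thick limb and distal tubule, collecting duct, podocyte and endothelium that was checked, 5 for each, had counts in every kidney library. In the clones all 7 B-lineage markers did, with summed levels of 6376.4 to 8303.6 allelic counts per 1000000 of the library (cpm) against 9.85 to 22.8 in kidney, and the kidney tubule markers were at or near 0. These are bulk samples, so between kidney and clones fewer cells of a type and less RNA per cell cannot be told apart. Leukocyte and blood markers summed to 320.8 to 593.7 cpm in the kidney libraries, 407.7 to 423.1 in Abl.1 and 603.1 to 619.5 in Abl.2. Endothelial markers summed to 580.0 to 924.1 cpm in kidney, 324.4 to 339.9 in Abl.1 and 39.0 to 43.4 in Abl.2. Column names do not fix the parent of origin, since all 10 imprinted genes that could be checked used the column opposite to the one their imprint predicts. An allele is named here by its column alone. At an AI of 0.5 the 95% Wilson interval was 0.46 to 0.54 at 600 counts and 0.404 to 0.596 at 100 counts. These intervals cover counting error only, and a read over several strain differences is counted at each of them.

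Among the 100 genes, the median absolute AI difference between the kits was 0.184 and the largest was 0.328. These differences chose the genes and are given as a description, without a test. The median standard error of the difference, from the spread over libraries, was 0.0259 and the highest was 0.0745. The AI values of the 6 NEBNext and the 6 SMARTseq 10 ng libraries did not overlap for 83 of the 100, while 9.53% of all eligible genes had libraries that did not overlap. Because the same contrast chose the genes, nothing is read from that count. The genes nearest inside the limit were Rsl24d1 (0.151), AU022252 (-0.151) and Pxmp4 (0.151), and those nearest outside it were Trove2 (-0.15), Pgm3 (-0.149) and Gemin2 (0.148).

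**Figure D1:**
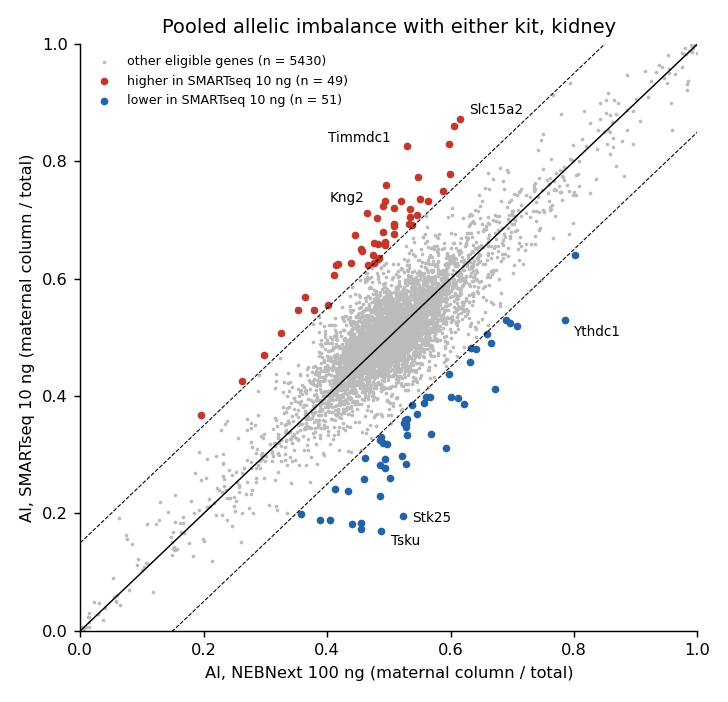
Pooled AI of the 5530 eligible kidney genes with NEBNext 100 ng (x axis) against SMARTseq 10 ng (y axis), both as the maternal-column share of allelic counts. The 49 genes with higher AI in SMARTseq 10 ng (red) lie above the upper dashed line and the 51 with lower AI (blue) below the lower one, both drawn 0.15 from equality, and most of the 100 lie near 0.5 on the x axis.

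Most of these genes were close to balanced in the NEBNext libraries and skewed in the SMARTseq 10 ng libraries. AI lay between 0.4 and 0.6 for 75 of the 100 genes with NEBNext and for 18 with SMARTseq 10 ng, against 82.7% and 81.0% of the other eligible genes. The rule used these same values, and a gap of at least 0.15 seldom leaves both kits inside this band. A shortfall from the other genes is therefore in part built in, and the counts here are given as a description. For 73 genes AI was in that band with NEBNext alone, for 16 with SMARTseq 10 ng alone, for 2 with both and for 9 with neither. The 16 genes balanced with SMARTseq 10 ng alone include Ythdc1, Tcea1, Slc7a12, Snhg20, Jund and Pptc7. NEBNext gave the AI nearer to 0.5 for 78 of the 100 genes, compared with 51.3% of the others. AI stood on opposite sides of 0.5 with the 2 kits for 53 of the genes.

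The largest rise was that of Timmdc1 (chr16:38498347-38522663, minus strand, GRCm38), an assembly factor of respiratory complex I. Its AI in the NEBNext libraries was 0.484 at the lowest, 0.516 at the median and 0.645 at the highest. In SMARTseq 10 ng the corresponding values were 0.779, 0.823 and 0.868, and in SMARTseq 100 pg they were 0.782, 0.853 and 0.926. No NEBNext library reached the lowest SMARTseq library of either input. Pooled AI was 0.53 ± 0.0571 (SD, n = 6) with NEBNext and 0.827 ± 0.0318 (SD, n = 6) with SMARTseq 10 ng, on nearly equal counts of 5166 and 5144.

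Slc15a2 (chr16:36750177-36784962), which encodes a proton-coupled transporter for small peptides in the kidney tubule, was skewed in both kits but more so with SMARTseq. Its lowest, median and highest library AI were 0.537, 0.607 and 0.726 with NEBNext and 0.856, 0.871 and 0.886 with SMARTseq 10 ng. The SMARTseq 100 pg libraries spanned 0.827 to 0.887, which is the same range as at 10 ng apart from its lower end. Npnt (chr3:132881745-132950291), the extracellular matrix protein nephronectin, was close to this form, with a pooled AI of 0.598 with NEBNext and 0.829 with SMARTseq 10 ng. Its 6 NEBNext libraries lay between 0.55 and 0.628 and the SMARTseq 10 ng libraries between 0.815 and 0.854.

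Kng2 (chr16:22985854-23029482), a kininogen gene whose product is cleaved to release kinin peptides, had the most NEBNext counts of the set, 42208. The 6 NEBNext libraries lay between 0.479 and 0.502, with a median of 0.491. SMARTseq 10 ng ranged from 0.709 to 0.745 around a median of 0.721, and SMARTseq 100 pg from 0.609 to 0.656 around 0.637. The 3 groups did not overlap, and the lowest input stood between the other two. Slc5a12 (chr2:110597298-110647779), the sodium-coupled lactate carrier of the proximal tubule, was close to it in size, rising from a pooled 0.48 ± 0.0207 to 0.704 ± 0.0188 (SD, n = 6 each), with 0.662 at 100 pg.

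The other genes among the 10 largest rises also had varied roles. Pdp2 (chr8:104591451-104599026), a phosphatase that activates pyruvate dehydrogenase, went from 0.496 with NEBNext to 0.76 with SMARTseq 10 ng. For Csnk2a1 (chr2:152226839-152281852), a catalytic subunit of casein kinase II, the pooled values were 0.606 and 0.861. Nfkbib (chr7:28758251-28767512), an inhibitor that holds NF-kappa B in the cytoplasm, had 0.465 and 0.712. The endoplasmic reticulum protein Reep3 (chr10:67009189-67096945) had 0.493 and 0.732, the translation factor Paip1 (chr13:119428601-119458218) 0.445 and 0.674, and the RNA helicase Dhx34 (chr7:16197147-16222037) 0.547 and 0.773. In each of these 6 genes the highest NEBNext library stayed under the lowest SMARTseq 10 ng library, the closest being Nfkbib at 0.574 and 0.646.

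**Figure D2:**
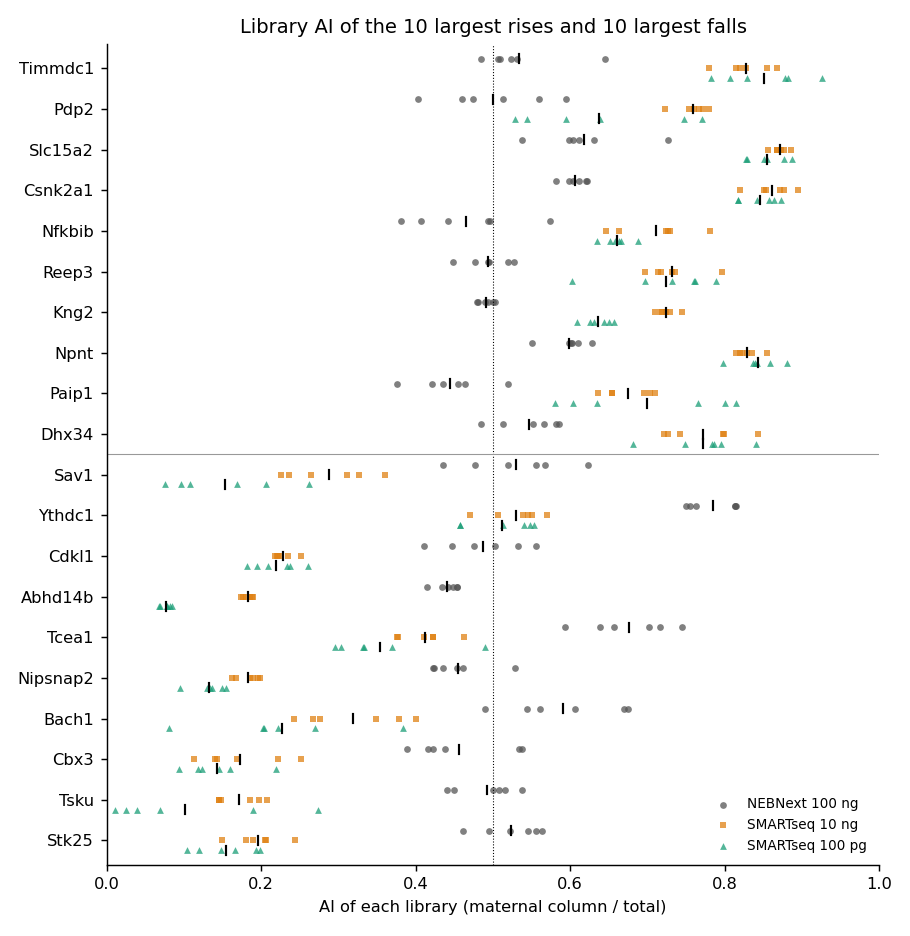
AI of every kidney library (x axis, maternal-column share) for the 10 genes with the largest rise from NEBNext to SMARTseq 10 ng (upper rows) and the 10 with the largest fall (lower rows), with NEBNext 100 ng as circles, SMARTseq 10 ng as squares and SMARTseq 100 pg as triangles; short black lines mark the mean of the 6 libraries. In all 20 genes the circles stand apart from the squares, and the mean of the triangles is nearer to that of the squares, although the triangles of Pdp2 reach down to 0.528, among its circles.

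Stk25 (chr1:93619751-93658659), a germinal centre kinase that works in STRIPAK complexes, had the largest fall. Its NEBNext libraries gave 0.461, 0.533 and 0.564 as the lowest, median and highest AI. With SMARTseq these were 0.149, 0.198 and 0.244 at 10 ng and 0.104, 0.157 and 0.198 at 100 pg. Maternal-column counts of Stk25 were lower by 2.39 on the log2 scale of cpm with SMARTseq 10 ng, while its paternal-column counts fell by 0.21. Tsku (chr7:98350668-98361328), which encodes the secreted leucine-rich protein tsukushi, moved almost as far, from a pooled 0.488 ± 0.0389 to 0.17 ± 0.0283 (SD, n = 6 each). Its 100 pg libraries were widely spread, from 0.0115 to 0.274 with a median of 0.0546.

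Abhd14b (chr9:106447459-106452923), a hydrolase-family gene, combined a large fall with high counts. NEBNext libraries spanned 0.414 to 0.453, SMARTseq 10 ng 0.174 to 0.189 and SMARTseq 100 pg 0.0676 to 0.0848. The 3 groups were again fully separate, but here the lowest input lay beyond 10 ng and not between the kits. Aco1 (chr4:40143081-40198338), the cytosolic aconitase that also serves as an iron-regulatory RNA-binding protein, had the most SMARTseq 10 ng counts, 50088. Its medians were 0.406 with NEBNext, 0.191 with SMARTseq 10 ng and 0.189 with SMARTseq 100 pg, and the ranges of the SMARTseq groups overlapped each other but not that of NEBNext, which started at 0.382.

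The other genes among the 10 largest falls had varied roles. Cbx3 (chr6:51470360-51483704), a heterochromatin protein that binds methylated histone, had a pooled AI of 0.455 with NEBNext and 0.174 with SMARTseq 10 ng. Bach1 (chr16:87698945-87733346), a heme-regulated repressor of antioxidant genes, had 0.592 and 0.311, and the mitochondrial protein Nipsnap2 (chr5:129725063-129758327) had 0.455 and 0.183. The kinase gene Cdkl1 (chr12:69746848-69791267) had 0.485 and 0.229. Tcea1 (chr1:4857814-4897909), an elongation factor of RNA polymerase II, and Ythdc1 (chr5:86804221-86836659), a nuclear reader of methylated adenosine in RNA, had a different form and were skewed with NEBNext. Tcea1 had 0.672 and 0.412, and Ythdc1 had 0.785 and 0.53. The NEBNext libraries of Ythdc1 lay between 0.75 and 0.815, and its SMARTseq 10 ng libraries between 0.47 and 0.57.

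A pair of Hippo pathway genes was among the falls. Sav1 (chr12:69965012-69987002), the scaffold of the pathway's kinases, had NEBNext libraries from 0.435 to 0.623 and SMARTseq 10 ng libraries from 0.226 to 0.36. Lats1 (chr10:7681214-7716460), one of those kinases, had 0.412 to 0.653 and 0.276 to 0.443, so its groups overlapped, and at 100 pg it spread from 0.181 to 0.724. Of the 15 Hippo genes with enough counts these 2 met the rule, or 13.3% against 1.81% of all eligible genes. The list was chosen with earlier results of these data known, so nothing is read from that share. The median absolute AI difference of the 15 was 0.0302 against 0.028 over all eligible genes.

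Of the genes with enough counts, 1 of 30 for proximal tubule transport met the rule (Slc5a12) and 1 of 15 for the collecting duct (Aqp3), where 1.81% of all eligible genes did. At that share most lists of this size would hold 1 member or none, so nothing is read from the counts of single lists. Aqp3 (chr4:41092722-41098183), a water and glycerol channel of the basolateral membrane, had pooled AI of 0.533 ± 0.0354 with NEBNext, 0.694 ± 0.018 with SMARTseq 10 ng and 0.803 ± 0.0333 with SMARTseq 100 pg (SD, n = 6 each). None of 17 thick limb and distal tubule genes, 8 podocyte genes, 9 endothelial genes, 7 leukocyte and blood genes or 14 imprinted genes was in the set. Nor was any of 24 genes of fatty acid oxidation, 17 of the vacuolar ATPase or 31 splicing factors, while 1 of 25 genes of gluconeogenesis and the citric acid cycle (Aco1) and 1 of 7 STRIPAK and germinal centre kinase genes (Stk25) were. Solute carriers as a family gave 5 of 177, or 2.82%: Slc15a2, Slc5a12 and Slc7a12 with higher AI in SMARTseq 10 ng, and Slc2a9 and Slc5a6 with lower. Among Tmem-named transmembrane proteins 4 of 102 met the rule, 1 with higher and 3 with lower AI in SMARTseq 10 ng, and among predicted or clone-named genes 2 of 98 did (Gm13111 and 3110040N11Rik). Against the same 1.81%, no member came from 56 mitochondrial ribosomal proteins, 36 proteasome subunits, 31 translation initiation factors, 39 genes of ubiquitin conjugation and removal, 35 Rab GTPases, 9 collagens or 5 pseudogenes by symbol.

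Members were slightly less abundant than other eligible genes. Their median level, as cpm without a length correction, was 51.5 with NEBNext and 43.6 with SMARTseq 10 ng, against 62.1 and 51.9 for the others. When eligible genes were ordered by mean abundance and cut into 4 equal groups, from lowest to highest, 2.46%, 1.95%, 1.52% and 1.3% of the eligible genes met the rule. The median absolute AI difference over all genes of such a group followed the same order, from 0.0343 to 0.0222, and the part of counting error in these shares was not tested. Members also reached high levels. Kng2, Abhd14b and Aco1 were at 1107.6, 1029.3 and 900.4 cpm with NEBNext. The SD of AI over the 6 libraries had a median of 0.048 in members and 0.0403 in the others with NEBNext, 0.036 and 0.034 with SMARTseq 10 ng, and 0.0629 and 0.0582 with SMARTseq 100 pg.

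Total counts of the members differed somewhat less between the kits than those of other genes, a difference that was not tested. The median absolute log2 ratio of abundance was 0.576 for members and 0.696 for other eligible genes, and abundance differed more than 2-fold for 20 members and 31.3% of the others. With SMARTseq 10 ng, 8 members were more than 2-fold higher and 12 more than 2-fold lower. With scaling by trimmed means this split was 16 and 9, because that scaling moved the median log2 ratio of all eligible genes from -0.23 to 0.12. The same scaling gave a median absolute log2 ratio of 0.584 for members and 0.64 for all eligible genes. That gap is narrower than the 0.576 and 0.694 without it. Among genes higher in SMARTseq 10 ng the widest ratio was that of Slc7a12, an amino acid transporter, at 193.6 cpm with NEBNext and 596.8 with SMARTseq 10 ng. Among genes lower there it was that of Plekhm2, an adaptor for lysosome transport, at 88.2 and 20.1 cpm. Timmdc1 was the opposite case, with the largest rise in AI and 135.2 and 134.2 cpm.

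Both alleles contributed to the AI differences. Relative to the median eligible gene, the 49 genes with higher AI in SMARTseq 10 ng had a median log2 ratio of 0.43 for maternal-column counts and -0.8 for paternal-column counts. The 51 genes with lower AI had -0.38 and 0.71. In 19 of the 49 the maternal column was up and the paternal column down by this measure, and in 27 of the 51 the reverse held. By this measure the paternal column moved more than the maternal one in 29 of the 49 and in 29 of the 51. Without centring on the median gene, the maternal column moved more in 16 of the 49 and in 26 of the 51, so which column moved more among the 51 depends on the scaling.

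**Figure D3:**
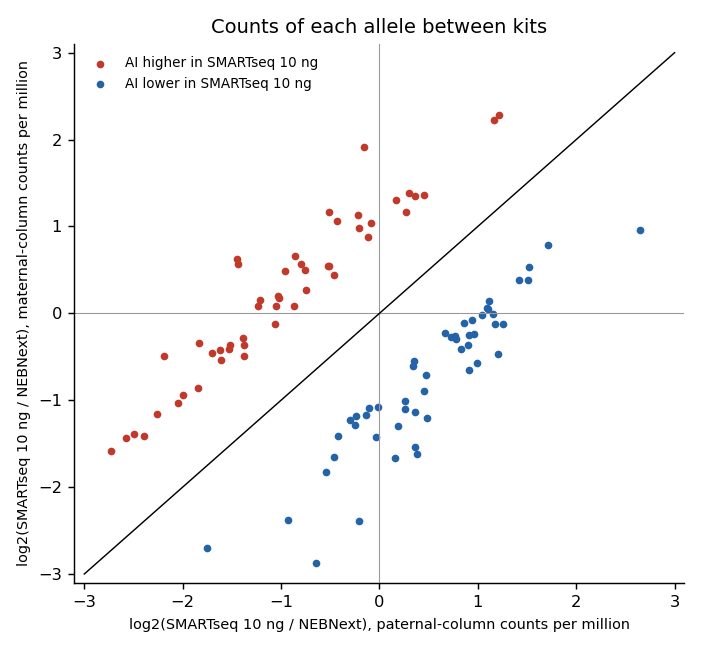
Log2 ratio of allelic cpm, SMARTseq 10 ng over NEBNext, for the paternal column (x axis) and the maternal column (y axis) of the 100 genes; red points have higher and blue points lower AI in SMARTseq 10 ng, and the diagonal marks equal ratios. Red points lie above the diagonal and blue points below it, at maternal ratios from -2.87 to 2.28.

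The genes were spread over the autosomes. Chromosome 4 held the most, 12 of 383 eligible genes (3.13%), followed in share by chromosome 16 with 6 of 197 (3.05%), and none of the 151 eligible genes of chromosome 18 was a member. A distance under 1000000 bases separated 7 pairs of members, and no 2 members overlapped. The nearest pair was Cdkl1 and Sav1 on chromosome 12, 173745 bases apart, both with lower AI in SMARTseq 10 ng. Dennd5b and Resf1 on chromosome 6, 207734 bases apart, had opposite signs, at -0.168 and 0.205. So did Aco1 and Aqp3 on chromosome 4, at -0.217 and 0.16.

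By most measures, overlap with neighbouring genes was about as common in the set as elsewhere. The span of 44 of the 100 genes overlapped that of another gene of the table, against 38.6% of the other eligible genes. When only neighbours with at least 100 pooled kidney counts were taken, 20 members had one, against 20.3%. In GENCODE M21, which is on the same build, exons of 11 members shared bases with a gene on the same strand (7.18% of the others) and those of 31 with a gene on the opposite strand (30.7% of the others). The median exonic length was 4466.5 bases for members and 4402 for the others. Bases that belonged to more than one gene were left out when the counts were made, so shared exons do not enter them where the older annotation used for counting had both genes.

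None of the 5 well-measured neighbours reached an AI difference of 0.15. Only 1.81% of all eligible genes did, so nothing is read from that count. Of the 20 overlapping neighbours with kidney counts, 5 had at least 600 counts with each kit, all 5 on the opposite strand. Their AI differences, SMARTseq 10 ng minus NEBNext, lay between -0.0484 and 0.0416. Abhd14a, which shares 220 bases of span with Abhd14b, had AI of 0.444 with NEBNext and 0.425 with SMARTseq 10 ng, while Abhd14b itself fell by 0.258. In GENCODE M21, 758 of the 2671 exonic bases of Abhd14b were shared with other genes. The other well-measured neighbours were Rpl3 beside Syngr1, Fez2 beside Crim1, Rnf181 beside Tmem150a and Nde1 beside Marf1. Farp2, which overlaps Stk25 by 2226 bases on the other strand, had 791 and 272 counts and AI of 0.336 and 0.419, a shift opposite in sign to that of Stk25. Gm15903, a noncoding transcript inside Nipsnap2 on the same strand, had AI of 0.63 and 0.854, again opposite to its host, on 27 and 82 counts.

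Reads from one gene can align to a near-identical copy elsewhere in the genome. Members had such copies at a share near that of the other eligible genes, and the difference was not tested. An alignment of at least 300 bases at 90% identity or more to a transcript of a gene that does not overlap was found for 17 members and for 12.6% of the others, and to a pseudogene for 13 and 9.98%. The median absolute AI difference was 0.175 in the 17 and 0.185 in the other members. Reads that aligned to more than one place had been discarded by the authors, and the part of the copies in these AI differences was not tested. To show how close such copies are, coding stretches of 60 bases are given from GENCODE M21 for 3 pairs, each the first stretch with at least 1 difference whose number of differences is closest to the pair's mean, with the bases that differ within the pair in capitals.
Kng2 (chromosome 16, minus strand): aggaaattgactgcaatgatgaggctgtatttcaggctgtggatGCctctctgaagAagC
Kng1 (chromosome 16, plus strand): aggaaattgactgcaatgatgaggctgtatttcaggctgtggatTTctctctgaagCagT
Trp53rka (chromosome 2, minus strand): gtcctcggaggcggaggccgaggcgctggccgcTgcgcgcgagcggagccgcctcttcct
Trp53rkb (chromosome 2, plus strand): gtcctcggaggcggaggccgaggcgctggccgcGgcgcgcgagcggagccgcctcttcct
Csnk2a1 (chromosome 2, plus strand): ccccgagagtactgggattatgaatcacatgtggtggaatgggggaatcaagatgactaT
Gm10031 (chromosome 1, plus strand): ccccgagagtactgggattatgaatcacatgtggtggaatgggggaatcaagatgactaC

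The coding sequences of Kng2 and Kng1 (chr16:23057865-23082078) were identical at 1791 of 1929 aligned bases, or 92.8%. Kng1 had AI of 0.153 with NEBNext and 0.138 with SMARTseq 10 ng, so the second kininogen gene was strongly skewed to the paternal column with either kit while Kng2 rose from 0.491 to 0.724. Trp53rka and Trp53rkb (chr2:166792531-166799505), genes for a kinase of the complex that modifies transfer RNA, were 98.5% identical over 732 bases. Trp53rka fell by 0.154 and Trp53rkb rose by 0.0475, from 0.648 to 0.695, on 514 and 1152 counts. Csnk2a1 and Gm10031 (chr1:156524012-156526664) differed at 1 of 1173 coding bases, 1172 being identical. Of the 11 copies found in the table, 6 had no count with either kit and 3 had at least 100 with both, namely Kng1, Trp53rkb and Haus1, the copy of Hfe.

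SMARTseq at 100 pg gave AI close to SMARTseq at 10 ng for these genes. AI at 100 pg was nearer to the 10 ng value than to the NEBNext value for 92 of the 100 genes, against 61.9% of the other eligible genes. Its median distance was 0.038 from 10 ng and 0.186 from NEBNext. It lay beyond the 10 ng value, away from NEBNext, for 49 genes, between the 2 kits for 49, and on the far side of NEBNext for 2. Across the 100 genes Pearson's r of AI was 0.945 with 10 ng and 0.2 with NEBNext, and all 3 groups share the RNA, while the members were chosen for a gap between the kits. AI at 100 pg was in the band from 0.4 to 0.6 for 32 genes, compared with 78.6% of the others.

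**Figure D4:**
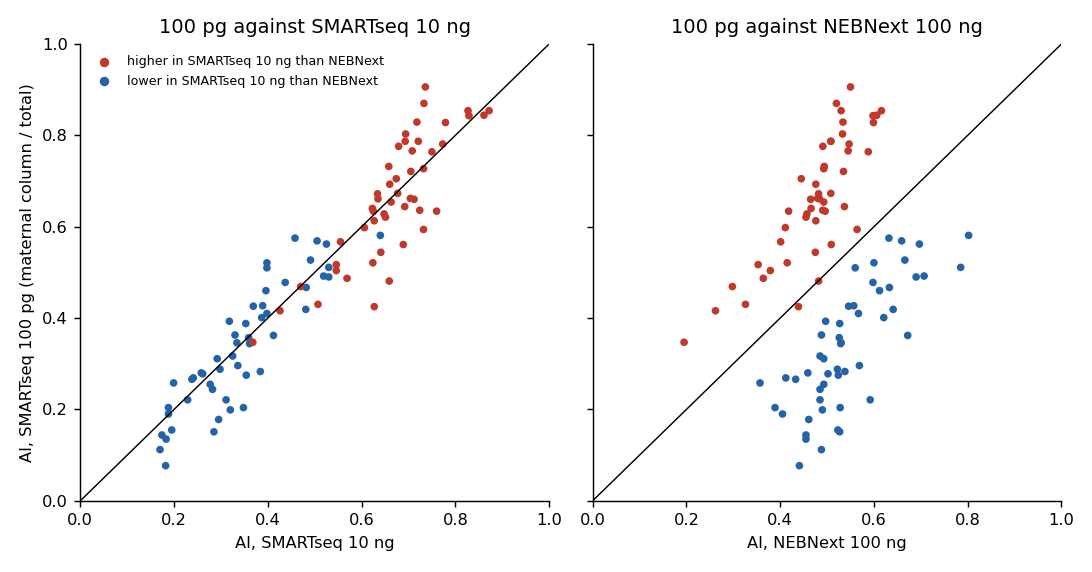
AI of the 100 genes in SMARTseq 100 pg (y axis) against SMARTseq 10 ng (left) and NEBNext 100 ng (right), with the line of equality; red genes have higher and blue genes lower AI in SMARTseq 10 ng than in NEBNext. Points follow the line on the left, where r was 0.945, and on the right red points lie mostly above and blue points mostly below it.

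The 8 exceptions were Slc5a6, Actn1, Pfas, Atp13a3, Txnl4b, Hectd4, A1cf and Marf1. Pfas, an enzyme of purine synthesis, had AI of 0.482 with NEBNext, 0.659 with SMARTseq 10 ng and 0.481 at 100 pg. Marf1, which regulates RNA stability in the germ line, had 0.439, 0.627 and 0.425. These 2 are the genes on the far side of NEBNext. In A1cf, a cofactor of mRNA editing, AI was 0.564, 0.732 and 0.594.

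The 100 pg libraries were not used to choose the genes, and their AI was tested against 0.5. They share RNA and kit with SMARTseq 10 ng, whose AI the rule used. Pearson's r of AI between these groups was 0.926 over all eligible genes. The number of calls among members and their direction therefore follow in part from how the genes were chosen. By edgeR's quasi-likelihood test with Benjamini-Hochberg adjustment over 10195 genes, 70 of the 100 differed from 0.5, against 25.8% of all genes tested and 31.6% of the other eligible genes. Of these 70, 34 were above 0.5 (13.5% of all genes tested were) and 36 below (12.3%). Of the 49 genes with higher AI in SMARTseq 10 ng, 34 were called above 0.5 and 3 below, and of the 51 with lower AI, 33 were called below and none above. With the proportional test corrected for overdispersion that the study uses, 58 were called, and 55 of the 70 passed under every alternative run. Calls lost under at least 1 of them include Paip1, Tcea1, Pdp2 and 3110040N11Rik.

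Timmdc1 had a log2 ratio of maternal to paternal counts of 2.57 in these libraries (edgeR adjusted p = 2.8e-06, AI above 0.5 in 6 of 6 libraries). For Stk25 the ratio was -2.47 (adjusted p = 4.76e-06 in edgeR, AI below 0.5 in 6 of 6). Abhd14b had -3.59 with an edgeR adjusted p of 3.8e-12 and Kng2 had 0.81 with 5.13e-08. Slc15a2, Csnk2a1 and Npnt had ratios of 2.56, 2.44 and 2.43. Ythdc1, balanced with SMARTseq 10 ng, did not pass at 100 pg, with a ratio of 0.07 (edgeR adjusted p = 0.76) where its NEBNext AI was 0.785. Lats1 did not pass either, with -0.53 (edgeR adjusted p = 0.438).

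In the Abl clones, AI of most measured members was nearer to kidney SMARTseq 10 ng than to kidney NEBNext. At least 100 pooled counts were present for 78 members in Abl.1 and 75 in Abl.2. AI was nearer to SMARTseq 10 ng for 51 of the 78 in Abl.1 (65.4%, other eligible genes 53.4%) and for 47 of the 75 in Abl.2 (62.7%, others 53.9%). The second run of Abl.2 gave 46 of 76. The median distance of Abl.1 was 0.0967 from SMARTseq 10 ng and 0.176 from NEBNext, and that of Abl.2 was 0.115 and 0.199. The kidney values in these distances also chose the members, so the gap to the other genes may follow in part from that choice. Whether the nearness to SMARTseq 10 ng goes with the kit was not tested, because no NEBNext library of the clones was analysed here.

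Among the 74 members measured in both clones, 41 were nearer to SMARTseq 10 ng in both, 21 nearer to NEBNext in both, and 12 were divided. Of 4168 other eligible genes measured in both clones, 1560 were nearer to SMARTseq 10 ng in both and 1246 to NEBNext in both. Some clone values were at an extreme over a whole chromosome. On chromosome 4, 98.6% of the other eligible genes measured in Abl.2 had AI up to 0.05 or from 0.95, and all 7 chromosome 4 members measured in both clones had an Abl.2 AI of at least 0.992. Without genes at an AI up to 0.05 or from 0.95 in either clone, 38 of 64 were nearer to SMARTseq 10 ng in both and 18 to NEBNext in both. The same counts were 1418 and 1111 of 3689 other eligible genes. Without chromosomes 4, 7, 10, 11 and 18, the counts were 34 and 14 of 55, against 1126 and 903 of 2865 other eligible genes. Of these chromosomes, the median AI of other eligible genes was 0.999 on 4 and 0.338 on 10 in Abl.2 and 0.613 on 11 in Abl.1, while on 7 and 18 it lay between 0.488 and 0.503 in both clones. Pearson's r of AI across the measured members was 0.497 with SMARTseq 10 ng and -0.0423 with NEBNext in Abl.1, and 0.444 and 0.0675 in Abl.2. Across the other eligible genes it was 0.215 and 0.196 in Abl.1, and 0.201 and 0.168 in Abl.2. The rule shapes these contrasts. The median distance of member AI from 0.5 was 0.0449 with NEBNext and 0.168 with SMARTseq 10 ng, and a narrow range limits r. In the other eligible genes the kits differed by a median of 0.0274, which leaves little room to be nearer to one of them. Nothing is read from the gaps between members and other genes.

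**Figure D5:**
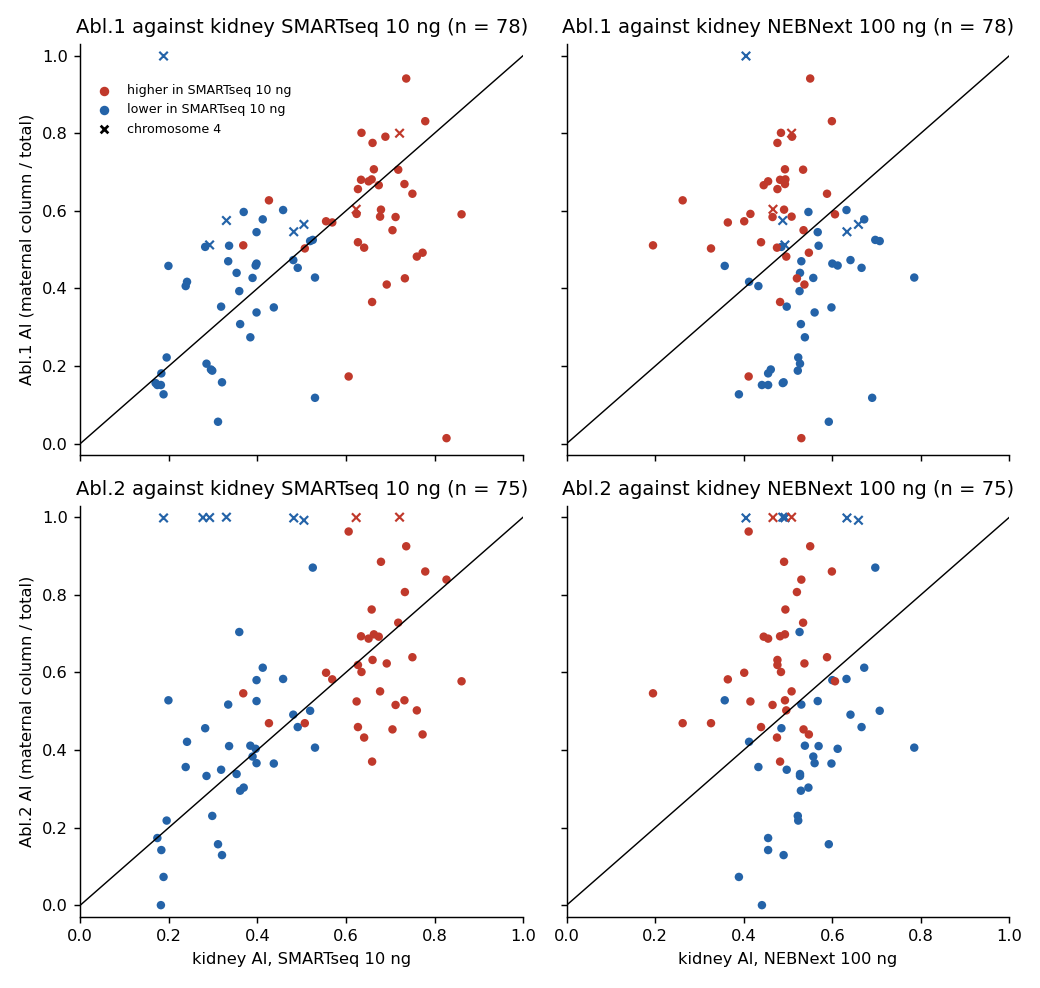
AI of the members in Abl.1 (upper panels, n = 78) and Abl.2 (lower panels, n = 75) on the y axes against kidney AI with SMARTseq 10 ng (left) and NEBNext (right), with the line of equality; red and blue mark higher and lower AI in SMARTseq 10 ng, and crosses mark chromosome 4. On the left most points scatter around the line with exceptions far from it, while on the right red points lie mostly above and blue points mostly below it, and the crosses of Abl.2, among them the 7 genes measured in both clones, sit near an AI of 1.

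Several of the genes with the largest falls had clone AI near that of kidney SMARTseq 10 ng. Stk25 had AI of 0.238 and 0.213 in the Abl.1 libraries and 0.198 and 0.237 in those of Abl.2, within the SMARTseq 10 ng range of 0.149 to 0.244, and far from the lowest NEBNext library at 0.461. Cbx3 had 0.213 and 0.0961 in Abl.1 and 0.178 and 0.168 in Abl.2. Nipsnap2 had 0.231 and 0.147, then 0.131 and 0.151. All 3 differed from 0.5 in both clones by edgeR, with log2 ratios in Abl.1 and Abl.2 of -1.79 and -1.85 for Stk25 (adjusted p = 1.95e-04 and 1.04e-04), -2.53 and -2.26 for Cbx3 (adjusted p = 3.4e-04 and 4.3e-04), and -2.14 and -2.6 for Nipsnap2 (adjusted p = 3.77e-04 and 7.94e-05). Paip1 lay on the other side of 0.5, at 0.657 and 0.673 in Abl.1 and 0.725 and 0.658 in Abl.2, where kidney SMARTseq 10 ng had 0.674. Tsku was measured in Abl.1 alone, at 0.141 and 0.164, beside 0.17 in kidney SMARTseq 10 ng.

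Other members were nearer to the NEBNext libraries in both clones. Csnk2a1 had AI of 0.591 and 0.59 in Abl.1 and 0.588 and 0.564 in Abl.2, beside 0.606 with kidney NEBNext and 0.861 with SMARTseq 10 ng. Pdp2 had 0.556 and 0.432, then 0.565 and 0.444, around the NEBNext value of 0.496, and did not pass the test in either clone (edgeR adjusted p = 0.907 and 0.947). Dhx34 had 0.462 and 0.516 in Abl.1 and 0.44 in both libraries of Abl.2, on the NEBNext side as well. Tcea1 had 0.559 and 0.607, then 0.607 and 0.616, nearer to the NEBNext value of 0.672 than to 0.412. Ythdc1, by contrast, had 0.451 and 0.391, then 0.4 and 0.413, beyond the SMARTseq 10 ng value of 0.53.

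In some members the clones were far from kidney with either kit. Aco1 had AI of 0.998 and 0.999 in Abl.1 and 0.999 and 0.997 in Abl.2, where kidney had 0.405 with NEBNext and 0.188 with SMARTseq 10 ng. Bach1 had 0.057 and 0.0559 in Abl.1 and 0.141 and 0.172 in Abl.2, lower than in any kidney SMARTseq 10 ng library, the lowest of which had 0.243. Abhd14b had no maternal-column count among 241 in Abl.2, which allows an AI of up to 0.0124 by counting error, and 0.0511 and 0.243 in the libraries of Abl.1.

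Of the 77 members with enough counts in every clone library, AI differed from 0.5 for 44 in Abl.1, where 37.8% of 10068 genes tested and 39.4% of the other eligible genes were called (edgeR, adjusted over all genes). In Abl.2 there were 50, against 40.7% of all genes tested and 42.1% of the other eligible genes. In Abl.1, 22 of the 44 were above and 22 below 0.5, against 18.5% and 19.3% of the genes tested. In Abl.2, 28 were above and 22 below, against 20.2% and 20.5%. Among called genes with higher AI in SMARTseq 10 ng, 19 of 22 in Abl.1 and 19 of 21 in Abl.2 were above 0.5. Among called genes with lower AI, 19 of 22 and 20 of 29 were below. Of the measured other eligible genes with higher AI in SMARTseq 10 ng, called or not, 1267 of 2278 in Abl.1 and 1234 of 2204 in Abl.2 were above 0.5. Of those with lower AI, 1055 of 2147 and 976 of 2078 were above 0.5. The split uses the sign of the difference that chose the members, so the directions may follow in part from that choice. The overdispersion-corrected proportional test called 29 in Abl.1 and 45 in Abl.2, and without replicate 2 of Abl.2 the edgeR count for Abl.2 was 32. Under every alternative run, 21 of the 44 and 29 of the 50 passed, Stk25, Cbx3 and Nipsnap2 among them in both clones.

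The clones differed from each other in 21 of the 77 members (27.3%), near the 26.4% of all genes tested and below the 32.4% of the other eligible genes. AI was higher in Abl.2 for 14 (14.2% of the genes tested) and lower for 7 (12.2%). The largest difference in AI, 0.825, was that of Timmdc1. Its AI was 0.00686 and 0.0214 in Abl.1 and 0.828 and 0.849 in Abl.2, and the log2 ratio differed by 8.49 (edgeR adjusted p = 7.84e-07). On the log2 scale several genes with an Abl.2 AI near 1 differed more, Plekhm2 by 11.96. The value of Abl.2 equals that of kidney SMARTseq 10 ng, 0.827, to within the spread of its libraries, while Abl.1 used almost solely the paternal column. The uncharacterised gene 3110040N11Rik had 0.158 and 0.195 in Abl.1 and 0.963 in both libraries of Abl.2, a difference of 6.92 (edgeR adjusted p = 5.49e-07), where kidney had 0.411 and 0.606. The count of 21 was 13 without replicate 2 of Abl.2 and 14 without replicate 1, and 11 genes passed under every alternative. The genes with lower AI in Abl.2 were the least stable, with 7 calls by edgeR and none by limma or without replicate 2 of Abl.2.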

How the data were processed

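Per the labels and the study's methods, the authors ran STAR 2.5.4a against a pseudogenome for each strain, built on GRCm38. Reads with a single alignment were retained and libraries of a group sampled to equal numbers. Alleles were counted with samtools at strain differences and summed over merged exons outside regions shared by genes. The values deposited by the authors are counts per gene, allele and library, with no normalization. The deposited AI tables were not used. Replicates were pooled here by summing counts. Members and gene lists were chosen with earlier results of these data known. Named genes are the 10 largest rises and falls, the 3 nearest on each side of the limit, the 3 with the highest mean cpm over the kidney groups, members of a fixed list and the 2 called members with the largest difference between the clones. Other genes were named after their values were seen.

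AI of 0.5 and differences between clones were tested with edgeR 4.0.16 (R 4.3.3, quasi-likelihood, terms for library and allele, at least 10 counts per library, Benjamini-Hochberg adjustment at 0.05). Alternatives were DESeq2 1.42.0, limma 3.58.1 on logit AI with 0.5 added, the study's proportional test with its overdispersion constant (2.59 for SMARTseq 100 pg, 2.61 for Abl.1 and 2.17 for Abl.2), other minimums and scaling, and each library left out. The tests were tried on simulated data. Libraries of a clone, like those of a kidney group, are technical replicates per the study, and p-values measure only the spread between libraries. Gene symbols written as dates, 26 in the table, were restored from gene identifiers. Exons, strands and transcripts came from GENCODE M21, whose positions equal those of the table for 98 of the 100 genes. Positions of the strain differences were not analysed here.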

Additional observations from a re-analysis of the deposited data

Results flagged for a closer look

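A single library stood far from the other 5 of its group, by Dixon's criterion for 6 values, in 4 of 81 combinations of a named gene and a kidney group, where chance gives about 1 in 20. Timmdc1 in NEBNext replicate 6 had AI of 0.645 against 0.484 to 0.531 in the others, a gap of 0.707 of the whole range. Nipsnap2 in NEBNext replicate 1 had 0.528 against 0.423 to 0.461, a gap of 0.635 of the range. Pxmp4 in SMARTseq 100 pg replicate 1 had 0.576 against 0.657 to 0.693 (0.698 of the range), and Slc5a12 in SMARTseq 10 ng replicate 6 had 0.668 against 0.704 to 0.719 (0.71 of the range).

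AI differed between the clones most for Timmdc1, by 0.825 (Abl.2 minus Abl.1), and for 3110040N11Rik, by 0.789. Both differences passed edgeR's test across all genes in every alternative run, with the highest adjusted p at 0.00538 for Timmdc1 and 0.000765 for 3110040N11Rik, both from limma.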

How the results depend on the processing

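The number of members moved most with the count minimum, to 153 at 300 pooled counts and 54 at 1200, with 79 and 29 of them higher in SMARTseq 10 ng. Leaving out 1 kidney library at a time gave 85 to 104 members, of which 80 to 94 were among the 100, and 43 to 51 with higher AI. Without replicate 1 of NEBNext, which the study set aside as an outlier, there were 91, with 84 among the 100. The 100 pg count of 92 ranged from 88 to 94 under left-out libraries, and those of the clones from 48 to 54 (Abl.1) and 45 to 47 (Abl.2). Calls against 0.5 were 65 to 70 at 100 pg, 36 to 43 in Abl.1 and 32 to 55 in Abl.2, and calls between clones 13 to 23. The Abl.1 count of 44 was 29 with limma and 29 with the proportional test. Span overlap was 20 when neighbours needed 100 counts. Leave-one-out values of the median absolute abundance ratio were 0.557 to 0.606. The clone counts by chromosome, by one-allele genes and without replicate 1 of NEBNext were added after seeing the data. The split of members over 2-fold apart in abundance turned with the scaling, from 8 higher and 12 lower to 16 and 9, and the share with higher AI, 49 of 100, passed 0.5 at both other count minimums. No difference of a named gene changed sign, and the AI differences of the named genes moved by less than 1 SD of the libraries in the alternatives run. Replicate numbers of the clones did not pair: the correlation of deviations was 0.0203 over 9432 genes, and a replicate block gave 17 calls in place of 21 between clones, 33 in Abl.1 and 42 in Abl.2. Depth limits AI at 100 counts to about 0.1 on either side.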
